A study of Mus musculus with 26 samples.

Results

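The first day of alectinib was examined in 3 murine lung cancer cell lines, EA1, EA2 and EA3, which carry the EML4-ALK fusion. The comparison used every library labelled day 1, which is 6 of the 26 libraries of the series: 3 lines cultured for 1 day with 100 nM alectinib, and the same 3 lines cultured for 1 day with 0.1% DMSO, the vehicle. Each line gave 1 library per treatment, so the alectinib library of a line was paired with the DMSO library of that line, and the replicates were lines and not repeat cultures of a line. The 3 lines came from tumors of C57BL/6 mice, made by an adenovirus that carries Cas9 and guides against Eml4 and Alk. EA1 was derived from a mouse with intact Trp53, and EA2 and EA3 from Trp53 null mice. In the DMSO libraries of day 1, Trp53 was detected in each line, at 216, 88.7 and 7.02 CPM (counts scaled to a common library total) for EA1, EA2 and EA3 in that order. The same order of lines is kept wherever 3 values are given. The cells grew in dishes without host cells, so no immune or stromal response could be measured. Libraries of days 2, 3 and 5 are used only to set the first day against later ones.

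ALK is a receptor tyrosine kinase, and joining it to EML4 gives a protein that dimerises and signals without ligand. Its output runs through the RAS, RAF, MEK and ERK cascade, through PI3K and AKT, and through STAT3. ERK drives transcription of growth genes together with its own brakes, the DUSP phosphatases and the Sprouty and Spred proteins, and those brakes are lost again soon after ERK activity stops. Alectinib occupies the ATP site of the ALK kinase. AKT keeps FOXO factors out of the nucleus, so FOXO target genes are a common readout of PI3K inhibition.

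The 6 libraries held between 9515225 and 11251905 counts assigned to named genes. A count of 3, taken as the floor of detection, stood for 0.273 to 0.319 CPM. Transcripts of the mitochondrial genome took 1.68% to 1.97% of counts in the DMSO libraries and 2.43% to 2.77% in the alectinib libraries, and the part of this difference in the results was not tested. The epithelial markers Epcam, Cdh1, Krt8, Krt18 and Krt19 summed to between 1240 and 6920 CPM in each library, although Epcam alone had 7 counts with DMSO and 0 with alectinib in EA2. The 4 endothelial markers Pecam1, Cdh5, Kdr and Tie1 summed to at most 4.52 CPM and the 5 leukocyte and macrophage markers Ptprc, Cd68, Adgre1, Csf1r and Itgam to at most 21.2 CPM. Of 8 alveolar type 2 markers, 3 exceeded 3 counts in any library. The surfactant genes and Nkx2-1, which define the alveolar type 2 cell, did not pass the filter on low counts.

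The libraries also fell into 2 kinds that the labels do not name. In each library, 6 mitochondrial transcripts (mt-Atp6, mt-Atp8, mt-Co2, mt-Co3, mt-Nd3 and mt-Nd4l) were summed and set against mt-Co1. This ratio was at most 0.621% in some libraries and at least 6.68% in others, with nothing between. On day 1 the high libraries were EA1 alectinib (7.95%), EA3 alectinib (9.52%) and EA2 DMSO (12.8%), so in EA2 the contrast ran opposite to that in EA1 and EA3. Across the 24 libraries of days 1 to 5, 286 genes were higher and 3 lower in the 8 high libraries, and 259 of these 289 genes, or 89.6%, were pseudogenes. None of the 289 was called in the day-1 test by edgeR. Genes that follow the kind of library move one way in EA1 and EA3 on day 1 and the other way in EA2. A test of a change shared by the lines could hardly call them, so the lack of calls says nothing about other genes. What made the 2 kinds of library was not tested, and the main results are also given with the kind of library as a term or without the 289 genes.

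After removal of genes with low counts, 12629 genes were tested with edgeR's quasi-likelihood test, with the line as a block. At an adjusted p (Benjamini-Hochberg) of 0.05, 1482 genes, or 11.7%, were higher with alectinib and 1489, or 11.8%, were lower. Of the 2971 genes called, 2961 had a log2 ratio of 1 sign in the 3 lines. Over all genes tested, the log2 ratio was above 0 in each line for 32.4% and below 0 in each line for 29.2%. A log2 fold change of at least 1 was reached by 725 of the higher genes, and 607 of the lower genes had one of -1 or less. Large changes were more often rises, with 231 genes at 2 or above and 93 at -2 or below. The smallest adjusted p was 0.0161, a value that many genes share after the adjustment, and the test had a median of 4.48 degrees of freedom. Adjusted p-values therefore do not rank the genes.

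**Figure D1:**
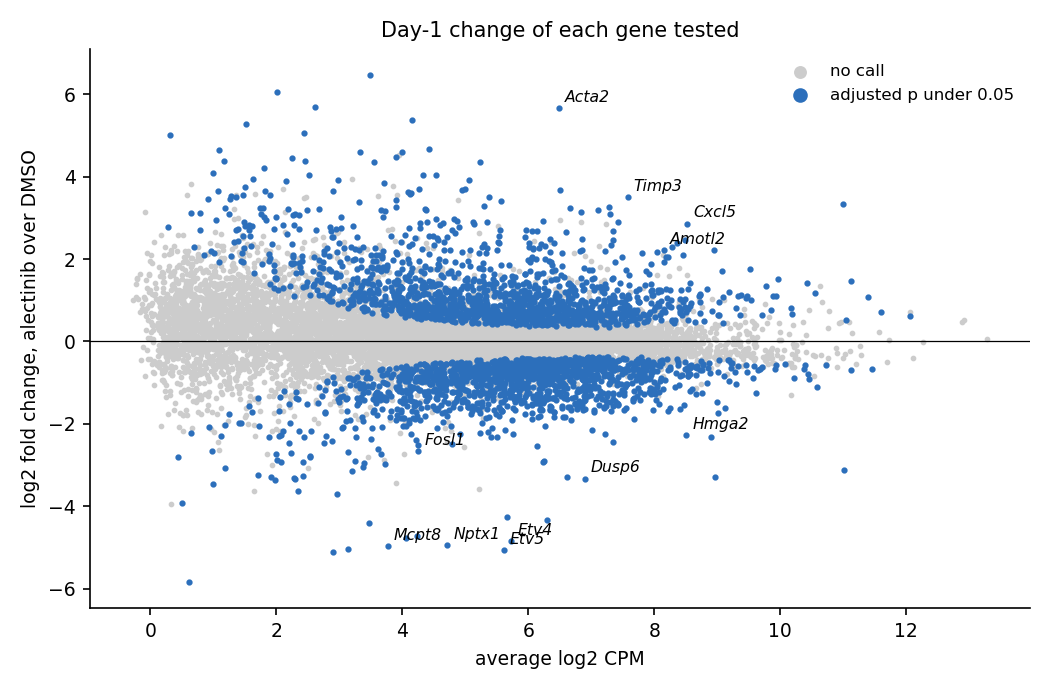
Each point is 1 of 12629 genes tested on day 1, with its average log2 CPM on the x axis and its log2 fold change, alectinib over DMSO, on the y axis. Blue points, 2971 genes, passed an adjusted p of 0.05, and named points include Etv4 and Etv5 near -5 and Timp3 at 3.51.

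With the kind of library as a term in the fit, 1930 genes were higher and 1890 lower, and 1423 and 1456 of them were among the genes called without it. In the day-1 fit this term cannot be told apart from a response of EA2 that differs from EA1 and EA3. It takes up any such response too, so these counts do not isolate the kind of library. When the 289 genes were left out before fitting, the counts were 1803 and 1735 and included every gene called before. The number of genes called depended on which line was left out. Without EA1 or without EA3 no gene passed in edgeR, where 3532 and 3193 had an unadjusted p under 0.05, and without EA2 2205 were higher and 2107 lower. With the 289 genes left out, the fits without EA1 and without EA3 called 199 and 426 higher genes and 193 and 386 lower genes.

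The sizes of the changes were compared between lines across genes, as a description, since genes share libraries and are not independent. Over the 12629 genes, the log2 ratios of EA1 and EA3 correlated at r = 0.791, and those of EA2 with r = 0.227 against either line. Without the 289 genes and with an average log2 CPM of at least 3, which left 9640 genes, r was 0.693 for EA1 and EA2, 0.81 for EA1 and EA3 and 0.711 for EA2 and EA3. With the 289 genes alone left out, r was 0.385, 0.77 and 0.395 for these pairs in the same order. EA2 had the lower values in each case. The 289 genes were picked with the day-1 libraries in the fit, so leaving them out raises r for EA2 by their choice. The source of the lower likeness of EA2 was not tested.

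**Figure D2:**
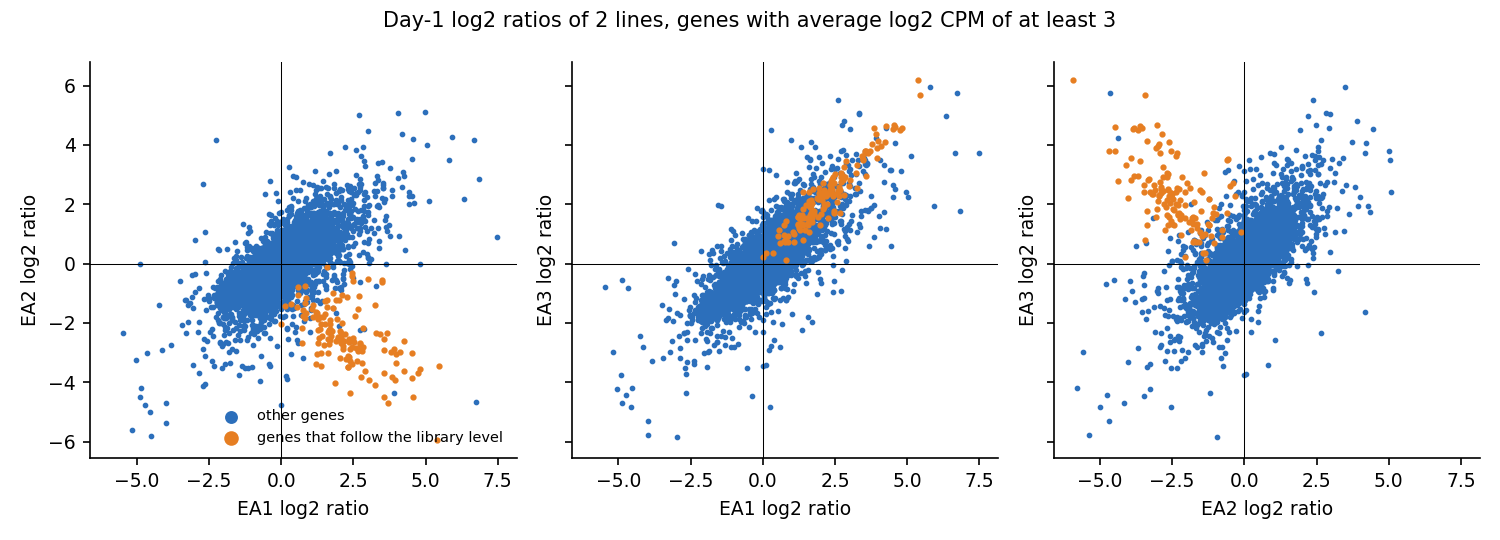
Log2 ratios (alectinib over DMSO, day 1) of 2 lines are plotted against each other for genes with an average log2 CPM of at least 3, with the genes that differ between the 2 kinds of library in orange and the others in blue. Most blue genes lie along the diagonal in each panel, and the orange genes lie off it only where EA2 is plotted.

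Genes that ERK is known to switch on were examined first. Of 48 tested members of a list of ERK feedback and target genes, 24 fell and 2 rose, with a median log2 fold change of -1.02 against 0.07 over all genes tested. By line the medians were -0.92, -1.28 and -1.08. The list holds genes that earlier results of these data had already shown to fall, so its direction is a description.

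Etv4 and Etv5 encode ETS transcription factors of the PEA3 group. In the DMSO libraries of EA1, EA2 and EA3, Etv4 stood at 93.1, 114 and 98.5 CPM, and with alectinib at 3.88, 1.83 and 5.23 CPM. The log2 fold change was -4.84 (standard error, SE, 0.38, 95% interval -5.85 to -3.83, adjusted p = 0.0161, edgeR). Etv5 went from 80.2, 113 and 89.8 CPM to 4.87, 2.54 and 1.45 CPM. Neither gene had an alectinib library within an order of magnitude of its DMSO library. Dusp6, the phosphatase that takes the phosphate off ERK in the cytoplasm, fell from 191, 264 and 191 CPM to 30.8, 15.9 and 19.2 CPM, a log2 fold change of -3.33 (SE 0.32, adjusted p = 0.0168, edgeR). For Fosl1, a subunit of the AP-1 factor, the values were 15.8, 53.8 and 26.4 CPM with DMSO and 2.88, 11.5 and 2.52 CPM with alectinib. Its groups were separate, but 57.2% of its exon bases lie over a gene on the other strand, and which strand column was counted is not stated in the sources used here.

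Several other brakes on ERK fell too. Of the DUSP genes tested in the list, Dusp4, Dusp5 and Dusp6 fell, Dusp1 rose and Dusp7 did not pass (log2 fold change -0.51), with 22.1% of the exon bases of Dusp5 over a gene on the other strand. Spry4, a Sprouty inhibitor of receptor signaling, fell from 51.7, 28.4 and 15 CPM to 3.08, 0.916 and 0.194 CPM. Spry2 fell by 1.47 on the log2 scale and Spry1 did not pass, at -0.45. The Spred genes, which hold RAF from activation, fell in all 3 cases, with log2 fold changes of -1.20 for Spred1, -1.46 for Spred2 and -1.82 for Spred3. Errfi1, which inhibits the EGF receptor, had a log2 fold change of -1.14 and also fell.

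**Figure D3:**
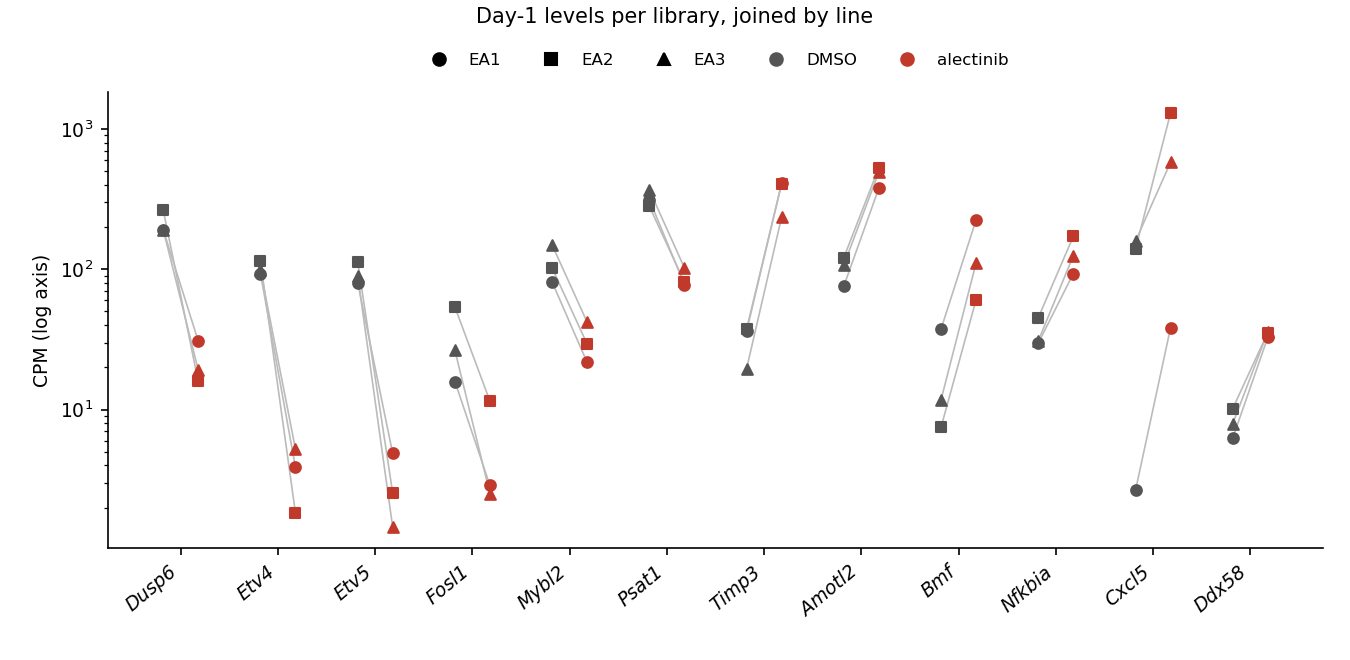
CPM per library on a log axis for 12 genes, with DMSO in grey and alectinib in red and a line joining the 2 libraries of each cell line. In each gene the 3 lines moved in the same direction, down for the first 6 genes and up for the last 6.

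Among growth factors and growth genes of the list, some fell and others did not pass. Areg, a ligand of the EGF receptor, went from 228, 71.2 and 82.8 CPM to 59.7, 6.72 and 7.27 CPM. The ligand Ereg and the cytokine Lif, at -1.03 and -1.05, did not pass. Ccnd1, the cyclin D that opens G1, went from 462, 1240 and 696 CPM to 185, 292 and 205 CPM, with 23.4% of its exon bases over a gene on the other strand. Hmga2, a chromatin protein of fetal and tumor tissue, fell from 603, 540 and 655 CPM to 157, 113 and 107 CPM. Myc did not pass, with a log2 fold change of -0.69 (adjusted p = 0.0959, edgeR), and its values of 328 and 295 CPM in EA2 lay close together. The list was not uniform. Fosl2, a further FOS-family gene, rose from 60.2, 114 and 111 CPM to 382, 611 and 298 CPM, a log2 fold change of 2.18 (SE 0.28, adjusted p = 0.0188, edgeR). Dusp1, a nuclear phosphatase that acts on p38 and JNK as well as ERK, rose by 1.94 on the log2 scale, and its call was lost when the 24 libraries of days 1 to 5 entered 1 fit.

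Genes of cell division were lower almost throughout. Of 54 tested genes of the G2/M list in the Seurat package, 51 fell and none rose, with a median log2 fold change of -1.36. Of 43 S phase genes, 37 fell and none rose, with a median of -1.30. By line the G2/M medians were -1.69, -1.10 and -1.30 and the S phase medians -1.65, -0.75 and -1.39, so both medians were nearest to 0 in EA2. The S phase genes that did not pass were Rrm1, Cdca7, Slbp, Ubr7, Casp8ap2 and Mrpl36. In G2/M they were Tmpo, Jpt1 and Cbx5. Bulk counts cannot tell fewer cells in a phase from less RNA per cell.

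Mybl2, the B-Myb subunit that activates G2/M genes, fell in near equal steps, from 80.9, 102 and 149 CPM to 21.7, 29.3 and 42 CPM. Its log2 fold change was -1.84 (SE 0.09, adjusted p = 0.0161, edgeR). Bub1, a spindle checkpoint kinase, went from 113, 138 and 136 CPM to 27.1, 46.9 and 46 CPM. Anln, an actin-binding protein of the cleavage furrow, went from 344, 263 and 284 CPM to 109, 103 and 116 CPM. Trip13, a checkpoint ATPase, fell by 1.82 on the log2 scale. Cdca3, which helps the mitosis entry network, fell by 1.49 on the log2 scale and lost its call in the 24-library fit.

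Control genes of G1 were called less completely. Of 25 tested, 11 fell and 1 rose, with a median of -0.47. Ccne1, the cyclin E that drives S phase entry, fell from 31.6, 46.1 and 35.6 CPM to 9.64, 12.1 and 11.7 CPM. E2f2, an activating E2F, fell from 29, 28.4 and 24.4 CPM to 9.44, 10.9 and 8.53 CPM, and E2f8, an atypical E2F, from 64.9, 79.8 and 80.6 CPM to 16.4, 14.9 and 13.8 CPM. The gene that rose was Cdkn1b, which encodes the CDK inhibitor p27, from 104, 38 and 78.1 CPM to 147, 76.8 and 127 CPM. Its log2 fold change was 0.73 (SE 0.13, adjusted p = 0.0284, edgeR) and the groups overlap, since EA2 with alectinib lay below EA1 with DMSO. The call was lost in the 24-library fit. Cdk4, the kinase partner of cyclin D, lay at 427 to 451 CPM with DMSO and 370 to 429 CPM with alectinib and did not pass. Cdkn1a, the p53-induced inhibitor p21, did not pass either, at -0.24, nor did the inhibitors Cdkn2a, Cdkn2b and Cdkn2c, while the inhibitor Cdkn2d fell by 1.08 on the log2 scale.

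Promoters of 2 of the division genes are printed, chosen as examples that hold the motif known for their group. Windows run from 250 bases before to 50 after the RefSeq start, in GRCm38.p6, and each is printed 5′ to 3′ on the gene's strand. Capitals in Anln mark TTTGAA on either strand, the letters of the cell cycle homology region (CHR), and in E2f2 TTTNNCGC on either strand, the letters of an E2F site.
Anln (chr9:22389157-22389456, strand -): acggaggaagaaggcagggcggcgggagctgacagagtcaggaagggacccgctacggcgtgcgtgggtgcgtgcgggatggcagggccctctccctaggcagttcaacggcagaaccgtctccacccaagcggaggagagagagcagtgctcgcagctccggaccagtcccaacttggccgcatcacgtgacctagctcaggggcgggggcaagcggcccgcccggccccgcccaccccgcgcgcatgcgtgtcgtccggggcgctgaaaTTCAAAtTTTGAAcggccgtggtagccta
E2f2 (chr4:136172024-136172323, strand +): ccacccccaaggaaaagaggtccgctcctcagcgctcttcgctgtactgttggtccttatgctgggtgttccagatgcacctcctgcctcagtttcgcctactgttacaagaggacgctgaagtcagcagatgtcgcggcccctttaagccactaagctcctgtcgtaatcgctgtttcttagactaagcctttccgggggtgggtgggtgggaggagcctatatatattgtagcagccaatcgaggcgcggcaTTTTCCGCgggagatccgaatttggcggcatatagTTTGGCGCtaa
The 2 matches in Anln lie within 50 bases after the start, as do those in E2f2. The TTTGAA letters occurred in 34 of 52 windows of the G2/M list, or 65.4%, and in 17.9% of all 32851 windows. The TTTNNCGC letters occurred in 42.9% of S phase windows and 36% of G1 windows, against 5.17% of all. Over all genes that fell, these shares were 18% and 13%, and over all genes that rose 9.18% and 6.88%, where genes tested on day 1 had 11.9% and 8.49%. A match is a string of letters and not a bound site.

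Genes for making ribosomes fell as a group. Of 45 tested, 40 fell and none rose, with a median log2 fold change of -0.90, and 44 had a log2 ratio below 0 in each line. Nhp2, a core protein of the H/ACA particles that modify ribosomal RNA, went from 114, 283 and 213 CPM to 49.1, 125 and 85.4 CPM. Rrp9, which works on the small subunit precursor, went from 62.1, 103 and 83.3 CPM to 30.8, 48.2 and 42.6 CPM, close to the same fraction in each line. Rrs1, needed for the large subunit, fell by 0.99 on the log2 scale (SE 0.09).
The Rrp9 window is shown for the ETS letters CCGGAA, in capitals, which were found in 48.8% of the ribosome biogenesis windows and in 14.9% of all windows. The share was 28.2% over genes tested on day 1, 31.9% over genes that fell and 20.1% over genes that rose.
Rrp9 (chr9:106477059-106477358, strand +): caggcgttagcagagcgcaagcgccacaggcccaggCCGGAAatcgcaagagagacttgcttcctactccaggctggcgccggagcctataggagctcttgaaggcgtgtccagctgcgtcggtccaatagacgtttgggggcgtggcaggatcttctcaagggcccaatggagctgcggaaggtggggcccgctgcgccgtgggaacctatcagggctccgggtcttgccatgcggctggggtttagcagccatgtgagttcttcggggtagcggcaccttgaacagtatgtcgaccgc

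Genes that the amino acid response factor ATF4 controls came next. In the list of ATF4 and amino acid response genes, 13 of 28 fell and 2 rose, with a median of -0.58. Psat1, a transaminase of serine synthesis, fell from 313, 281 and 367 CPM to 77.8, 81 and 102 CPM, a log2 fold change of -1.88 (SE 0.10, adjusted p = 0.0161, edgeR). Phgdh, the first enzyme of that route, had a log2 fold change of -1.15 and its call was lost in the 24-library fit. Shmt2, the mitochondrial serine hydroxymethyltransferase, fell by 1.51 on the log2 scale, and Shmt1, the cytosolic enzyme and no member of the list, by 1.98. The transporters Slc1a5 and Slc7a11 fell by 1.47 and 2.31 on the log2 scale, the latter with its call lost in several settings. Atf4 itself fell by 0.59 on the log2 scale. The members that rose were Atf3, a stress-induced factor, and Vldlr, a lipoprotein receptor, and neither kept its call in the 24-library fit.

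Lists of glycolysis and lipid synthesis were counted next. Of 28 glycolysis and hypoxia genes, 5 fell and none rose, or 17.9% lower where 11.8% of all genes were, with a median of -0.32. Ldha, lactate dehydrogenase, went from 2351, 1455 and 1672 CPM to 1410, 807 and 755 CPM, and Slc16a1, a lactate transporter, from 268, 346 and 345 CPM to 134, 116 and 107 CPM, and Ldha lost its call in the 24-library fit. Of 36 SREBP lipid synthesis genes, 7 fell (19.4%) and 1 rose, with a median of -0.57, and the list median was lowest in EA2 and nearest to 0, at -0.07, in EA3. The heat shock list had 6 of 17 genes lower, or 35.3% where 11.8% of all genes were. Its median was -0.11, and by line -0.42, 0.14 and -0.30. The lowest members were the mitochondrial chaperonins Hspd1 (-1.24) and Hspe1 (-0.98). Genes on the other strand overlap 4.24% and 7.60% of their exon bases.

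Further genes among those with the smallest p-values were lower. Nptx1, a neuronal pentraxin, went from 60.2, 57.9 and 33.4 CPM to 2.39, 1.63 and 0.969 CPM, a log2 fold change of -4.94 (SE 0.18, adjusted p = 0.0161, edgeR). Mcpt8, a protease known from basophils, went from 42, 21.7 and 14.3 CPM to 1.39, 0.611 and 0.485 CPM. Trib2, a pseudokinase whose call was lost in the 24-library fit, fell by 2.48 on the log2 scale, and Dagla, a lipase that makes endocannabinoid, by 1.81. Slc39a14, a zinc and iron importer, fell by 1.83 and Fut8, the core fucosyltransferase, by 1.53 on that scale. Mrc1, the mannose receptor known from macrophages, fell from 225, 85.9 and 227 CPM to 15.7, 12.7 and 23.4 CPM. The pan-leukocyte gene Ptprc and the macrophage genes Adgre1, Csf1r and Itgam did not pass the filter on low counts. Cd68 and Cd14 of the same list were tested and not called, with log2 fold changes of 0.64 and -0.50.

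The rises with the smallest p-values are given next, a choice that favours genes with like sizes in the 3 lines. Timp3, an inhibitor of matrix metalloproteases, rose from 36.2, 37.6 and 19.6 CPM to 408, 407 and 235 CPM. Its log2 fold change was 3.51 (SE 0.10, 95% interval 3.24 to 3.77, adjusted p = 0.0161, edgeR), and 21.3% of its exon bases lie over a gene on the other strand. Lurap1l, an adaptor-like protein, rose from 33.5, 30.8 and 18.4 CPM to 250, 301 and 195 CPM. Lamb2, a laminin chain, rose from 102, 66.9 and 43.3 CPM to 384, 300 and 182 CPM. Tubb2b, a beta tubulin, rose by 2.16, Gadd45g, a stress and arrest gene, by 2.39 and Klc4, a kinesin light chain, by 2.14 on the log2 scale. Mmp11, a metalloprotease, rose from 22.1, 26.5 and 20.1 CPM to 92, 150 and 93.9 CPM, with no overlap between the groups. Cyp2s1, a cytochrome P450, Slc40a1, the iron exporter ferroportin, and Tmprss2, a serine protease, also rose, but in EA2 their DMSO libraries held 2, 3 and 3 counts and in EA2 the size is loose.

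Genes held down by PI3K and AKT, and regulators of cell death, were examined next. Of 26 tested genes of a FOXO list, 6 rose (23.1%) and 1 fell (3.85%), where 11.7% and 11.8% of all genes did, with a median of 0.42. Fbxo32, a ubiquitin ligase and FOXO target, rose from 21.7, 10.7 and 7.84 CPM to 149, 29.6 and 58.4 CPM. Pik3ip1, an inhibitor of PI3K, rose from 2.98, 16.8 and 3.83 CPM to 16.2, 40.8 and 20 CPM. Foxo3 rose by 0.73 on the log2 scale and lost its call in the 24-library fit, and Arrdc3, an arrestin-like protein, fell by 1.48, with its call lost there too. In the BCL2 family, 1 of 13 tested genes passed, a rise in 7.69% where 11.7% of all genes rose. The gene that passed was Bmf, a BH3-only protein that binds the survival proteins of the family. It rose from 37.5, 7.49 and 11.8 CPM to 225, 60.5 and 111 CPM (log2 fold change 2.93, SE 0.17, adjusted p = 0.0161, edgeR). Bcl2l11, which encodes BIM, did not pass at 0.61 (adjusted p = 0.154, edgeR), nor did Pmaip1 at 1.58 or Mcl1 at 0.20.

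Receptor tyrosine kinases were measured because other receptors can carry signal when ALK is blocked. Of 25 tested, 4 rose and 1 fell, or 16% and 4% where 11.7% and 11.8% of all genes did, with a median of 0.33. Ddr1, a collagen receptor, rose from 133, 87.5 and 185 CPM to 309, 238 and 525 CPM. Met, the hepatocyte growth factor receptor, rose from 125, 147 and 254 CPM to 190, 260 and 377 CPM, a log2 fold change of 0.67 (SE 0.10, adjusted p = 0.022, edgeR), and its groups overlap between lines. Ephb6, an ephrin receptor with an inactive kinase domain, rose from 5.21, 7.22 and 6.93 CPM to 11.8, 64.4 and 59.5 CPM. Epha2, an ephrin receptor under ERK control, fell by 0.82 on the log2 scale and lost its call in the 24-library fit. Egfr did not pass at 0.98 and Erbb3 did not pass at 0.19. Alk, the target of the drug, stood at 78.3, 110 and 87.4 CPM with DMSO and 58.9, 112 and 52.3 CPM with alectinib (log2 fold change -0.37, 95% interval -0.83 to 0.10, adjusted p = 0.193, edgeR). Eml4 was at -0.41 (95% interval -0.79 to -0.03) and did not pass either. Counts per gene do not separate the fusion from the rest of Alk and Eml4, and without EA2 both passed.

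Inflammatory genes were counted in lists for NF-kB and for chemokines. Of 23 tested genes of NF-kB feedback and targets, 13 rose and none fell, with a median of 0.66, and of 13 tested chemokines 9 rose and none fell. Ccl7 and Cxcl15 had at most 10 counts in each DMSO library and could enter the test only through the alectinib libraries, and without them 7 of 11 chemokines rose. Nfkbia, the inhibitor that NF-kB induces to end its own activity, rose from 29.8, 45.1 and 30.9 CPM to 93.1, 172 and 125 CPM, a log2 fold change of 1.86 (SE 0.12, adjusted p = 0.0161, edgeR). Tnfaip3, the A20 brake on the same pathway, rose from 20.6, 31.3 and 48.5 CPM to 111, 95.8 and 174 CPM. Tnip1, which works with A20, rose by 0.98 on the log2 scale. The subunit genes Nfkb1, Nfkb2, Rela and Relb rose by 0.54, 0.66, 0.52 and 1.06, and Rel did not pass.

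Cxcl5, a neutrophil-attracting chemokine, rose from 2.66, 139 and 159 CPM to 38.3, 1296 and 578 CPM, so each line rose from its own level and EA1 with alectinib stayed below EA2 and EA3 with DMSO. Cxcl1, of the same class, rose from 21.1, 17.1 and 33.3 CPM to 154, 191 and 71 CPM, with no overlap. Ccl2, which attracts monocytes, rose from 3.83, 4.81 and 5.2 CPM to 14.2, 32.1 and 15.8 CPM. Ccl9 rose from 0.957, 0.925 and 8.57 CPM to 26.2, 12.6 and 55.2 CPM. Cxcl16, a membrane-bound chemokine, rose by 1.83 on the log2 scale. Cxcl5 and Ccl2 lost their calls in the 24-library fit. For Cxcl15, named by the rule, the DMSO libraries held 2, 1 and 2 counts and the alectinib libraries 276, 11 and 24, too few with DMSO for a fold. Cxcl10 and Ccl5, ligands that attract T cells, did not pass the filter. Cxcl10 had 2, 9 and 7 counts with DMSO and 3, 16 and 81 with alectinib, and Ccl5 had 0, 3 and 0 with DMSO and 0, 35 and 8 with alectinib.

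The chemokine Cxcl1 and the feedback gene Nfkbia are printed as examples whose windows hold GGNNTTTCC, the letters of an NF-kB site. Capitals mark those letters on either strand.
Cxcl1 (chr5:90890995-90891294, strand +): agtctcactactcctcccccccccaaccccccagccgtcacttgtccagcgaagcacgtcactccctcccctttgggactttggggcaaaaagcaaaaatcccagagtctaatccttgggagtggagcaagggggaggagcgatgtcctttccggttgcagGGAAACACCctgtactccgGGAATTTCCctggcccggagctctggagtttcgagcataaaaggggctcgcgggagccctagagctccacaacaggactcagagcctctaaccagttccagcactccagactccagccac
Nfkbia (chr12:55492598-55492897, strand -): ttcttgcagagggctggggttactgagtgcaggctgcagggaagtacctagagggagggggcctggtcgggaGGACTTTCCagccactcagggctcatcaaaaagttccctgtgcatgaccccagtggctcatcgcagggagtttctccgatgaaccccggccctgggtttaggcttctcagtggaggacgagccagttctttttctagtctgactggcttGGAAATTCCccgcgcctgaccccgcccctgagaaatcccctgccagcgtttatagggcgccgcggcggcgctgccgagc
GGNNTTTCC was found in 50% of the windows of the NF-kB list and 36.8% of the chemokine windows, against 5.82% of all windows. Over genes tested on day 1 it was 6.25%, over all genes that rose 7.2%, and over those that fell 5.52%. Matches to GGNNTTTCC, CCGGAA and the TEAD letters GGAATG can share a GGAA.

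Interferon-stimulated genes were partly higher. Of 46 listed, 25 passed the filter on low counts, and of these 12 rose and none fell, with a median of 1.06 and medians by line of 1.22, 0.67 and 1.31. Ddx58, the RNA sensor RIG-I, rose from 6.27, 10.2 and 7.93 CPM to 32.7, 35.4 and 35.8 CPM (log2 fold change 2.11, SE 0.17, adjusted p = 0.0161, edgeR). Parp9 rose from 12.2, 8.42 and 9.21 CPM to 26.6, 21.1 and 26.9 CPM and Irgm1, an immunity GTPase, from 21.7, 13 and 16.3 CPM to 64.7, 23.9 and 47.1 CPM. Classical members such as Ifit1, Isg15, Mx1 and Rsad2 had too few counts to be tested. In the list of antigen presentation by MHC class I, 5 of 15 tested genes rose and none fell. Tapbp, which loads peptide onto class I, rose from 39.6, 82.5 and 50 CPM to 117, 216 and 240 CPM, with 24.9% of its exon bases over a gene on the other strand. H2-T23, a non-classical class I gene, rose from 5.21, 4.63 and 7.47 CPM to 29.4, 18.8 and 19.7 CPM, but its reads may be shared with near copies in the class I family. B2m, the shared light chain, rose by 1.06 on the log2 scale. H2-K1 and H2-D1 did not pass.
Ddx58 is shown for AAANNGAAA, the letters of an interferon-response element, in capitals on either strand, which were found in 61.5% of the windows of the interferon list and 10.6% of all windows. The share was 7.59% over genes tested on day 1, 10.3% over genes that rose and 6.65% over genes that fell. These letters can overlap TTTGAA.
Ddx58 (chr4:40239776-40240075, strand -): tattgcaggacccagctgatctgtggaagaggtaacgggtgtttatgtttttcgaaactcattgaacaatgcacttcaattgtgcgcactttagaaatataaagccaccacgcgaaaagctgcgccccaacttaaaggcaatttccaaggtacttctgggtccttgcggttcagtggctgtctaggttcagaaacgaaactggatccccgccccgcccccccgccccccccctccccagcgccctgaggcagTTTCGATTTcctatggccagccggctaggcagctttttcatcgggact

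Genes of the contractile cytoskeleton were examined together with lists for YAP and the matrix. Of 12 tested smooth muscle and actin genes, 10 rose and 1 fell, with a median of 1.40. Myl9 had at most 10 counts in each DMSO library and entered the test through the alectinib libraries, and without it 9 of 11 rose, with a median of 1.34. Tpm1, a tropomyosin, rose from 1500, 1200 and 897 CPM to 3776, 3371 and 2683 CPM, a log2 fold change of 1.47 (SE 0.14, adjusted p = 0.0161, edgeR). Acta2, smooth muscle actin, rose from 4.47, 2.59 and 0 CPM to 476, 49.8 and 2.42 CPM, so EA3 with alectinib still lay below EA1 with DMSO. Myl9, a myosin light chain, had 5, 1 and 0 counts with DMSO and 588, 11 and 62 with alectinib, and its fold is not given. Smtn, smoothelin, fell by 0.61 on the log2 scale and lost its call in the 24-library fit.

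Of 28 tested YAP and TEAD target genes, 10 rose (35.7%) and 1 fell (3.57%), where 11.7% and 11.8% of all genes did, with a median of 0.58. Rbms3, which was not called, had at most 10 counts in each DMSO library, and without it the median was 0.51. Amotl2, an angiomotin that binds YAP, rose from 75.9, 121 and 107 CPM to 378, 530 and 493 CPM, a log2 fold change of 2.22 (SE 0.10, adjusted p = 0.0161, edgeR). Ajuba, a LIM protein that restrains the LATS kinases, rose from 81.9, 71.1 and 97.9 CPM to 264, 196 and 254 CPM, and Crim1, a transmembrane BMP antagonist, from 184, 36.4 and 75.6 CPM to 471, 114 and 276 CPM. Tead4, a TEAD factor, fell by 0.56 on the log2 scale and lost its call in the 24-library fit. Yap1 itself and Wwtr1, which encodes TAZ, did not pass, at 0.13 and 0.36.
The Ajuba window is shown for GGAATG, the letters bound by TEAD factors, in capitals on either strand, which were found in 50% of the windows of the YAP list, 41.2% of the smooth muscle windows and 14.7% of all windows. The share was 12% over genes tested on day 1, 13.9% over genes that rose, 10.5% over genes that fell and 44.4% in the alveolar type 2 list. In that list 1 of 6 tested genes rose, Cxcl15, which had at most 10 counts in each DMSO library. Without it 0 of 5 rose.
Ajuba (chr14:54577612-54577911, strand -): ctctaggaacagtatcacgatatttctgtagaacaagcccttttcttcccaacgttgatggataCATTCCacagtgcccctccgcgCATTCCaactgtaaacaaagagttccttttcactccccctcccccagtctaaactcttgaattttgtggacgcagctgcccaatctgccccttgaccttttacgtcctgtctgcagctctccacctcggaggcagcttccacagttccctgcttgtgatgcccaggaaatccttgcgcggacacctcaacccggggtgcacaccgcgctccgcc

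Of 27 tested matrix and collagen genes, 8 rose (29.6%, where 11.7% of all genes did) and none fell, with a median of 1.20. Lamb3, a laminin chain of epithelial basement membrane, rose from 32, 15.6 and 89.1 CPM to 297, 85.9 and 455 CPM, and Sparc, a matricellular protein, from 234, 493 and 286 CPM to 1173, 1398 and 801 CPM. Col1a1, a collagen I chain, rose from 4.68, 1.2 and 17 CPM to 13.4, 3.56 and 81.6 CPM. The fibroblast markers Col1a1, Col1a2, Col3a1, Pdgfra, Dcn, Lum and Thy1 summed to 6, 65.1 and 20 CPM with DMSO and 57.6, 255 and 88.2 CPM with alectinib, and 5 of these 7 exceeded 3 counts in any library. Of the 12 fibroblast genes listed, Col1a1 and Col1a2 were the ones that passed the filter, and both were called higher. Col1a2 had 0 counts in both EA1 libraries, so its call rests on EA2 and EA3, and it was lost in the 24-library fit. Their part in the matrix and smooth muscle results was not tested.

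Genes of lysosomes and autophagy showed many small rises. Of 36 tested, 22 rose and none fell, with a median of 0.55. Atp6v0d1, a subunit of the proton pump, rose from 76.8, 26.6 and 29.6 CPM to 180, 58.1 and 84.8 CPM. Lamp2, a lysosomal membrane protein, rose from 188, 242 and 127 CPM to 410, 449 and 245 CPM. Tfeb and Tfe3, the factors that control this set, did not pass, at -0.32 and 0.05.

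Lists of lineage and cell-state genes were counted in the same way, beside 11.7% higher and 11.8% lower over all genes. Of 12 gut and gastric genes, 4 rose (33.3%) and 2 fell (16.7%). Sox9, a progenitor factor, fell from 83.8, 60 and 80.8 CPM to 25.7, 16.6 and 36.5 CPM. Of 11 alveolar type 1 genes, 2 rose and 2 fell (18.2% each), with Lmo7 higher by 1.43 and the water channel Aqp5 lower, from 70.3, 185 and 273 CPM to 43.4, 47 and 71.3 CPM, a call lost in the 24-library fit. Of the 6 tested alveolar type 2 genes, Etv5 was called lower and Cxcl15 higher. Cxcl15 entered the test through the alectinib libraries. Among 14 epithelial markers 2 rose (14.3%) and none fell, and Cdh1, E-cadherin, went from 436, 54.1 and 678 CPM to 806, 187 and 1341 CPM. The sum of the 5 markers given above went from 4580, 1960 and 4590 CPM to 5310, 1240 and 6920 CPM, so it was lower with alectinib in EA2 and higher in EA1 and EA3. In EA2 the keratin Krt8 went from 268 to 76.9 CPM and Krt18 from 1400 to 648 CPM. Among 16 mesenchymal transition genes 6 rose (37.5%) and none fell, with Mmp14, a membrane metalloprotease, higher by 1.01, while Vim, at 0.04, and Twist1, at -0.36, did not pass.

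Of 15 tested Notch pathway genes, 3 rose and 3 fell, or 20% each where 11.7% and 11.8% of all genes did. Rbpj, the DNA-binding factor of the pathway, fell from 231, 169 and 201 CPM to 99.7, 62.7 and 80.1 CPM, and Jag2, a ligand, fell by 1.23 on the log2 scale. Lfng, which modifies the receptors, rose from 21.5, 24.4 and 24.5 CPM to 42.7, 58.2 and 67.4 CPM, and Dtx4, a ubiquitin ligase, rose by 1.71. Nrarp, a feedback target, fell by 2.46, but 79.4% of its exon bases lie over a gene on the other strand. Of 30 p53 target genes, 2 rose (6.67%) and 5 fell (16.7%), with a median of 0.01. Trp53inp1 rose in the 3 lines, from 43.5, 14.3 and 4.56 CPM to 153, 84.1 and 72.8 CPM. So did Fas, the death receptor, from 1.06, 0.185 and 0.456 CPM to 12.5, 3.26 and 2.13 CPM, the EA2 value with DMSO being 2 counts. Fas had at most 10 counts in each DMSO library and entered the test through the alectinib libraries. Without it 1 of 29 p53 target genes rose. Mdm2, the feedback target of p53, was at -0.05 and did not pass. Of the 5 that fell, Gtse1 and Ckap2 belong to the G2/M list too. Of 21 NRF2 antioxidant genes, 2 rose (9.52%) and 1 fell (4.76%), with Gstm1, a glutathione transferase, higher by 1.34, a call lost in the 24-library fit.

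**Figure D4:**
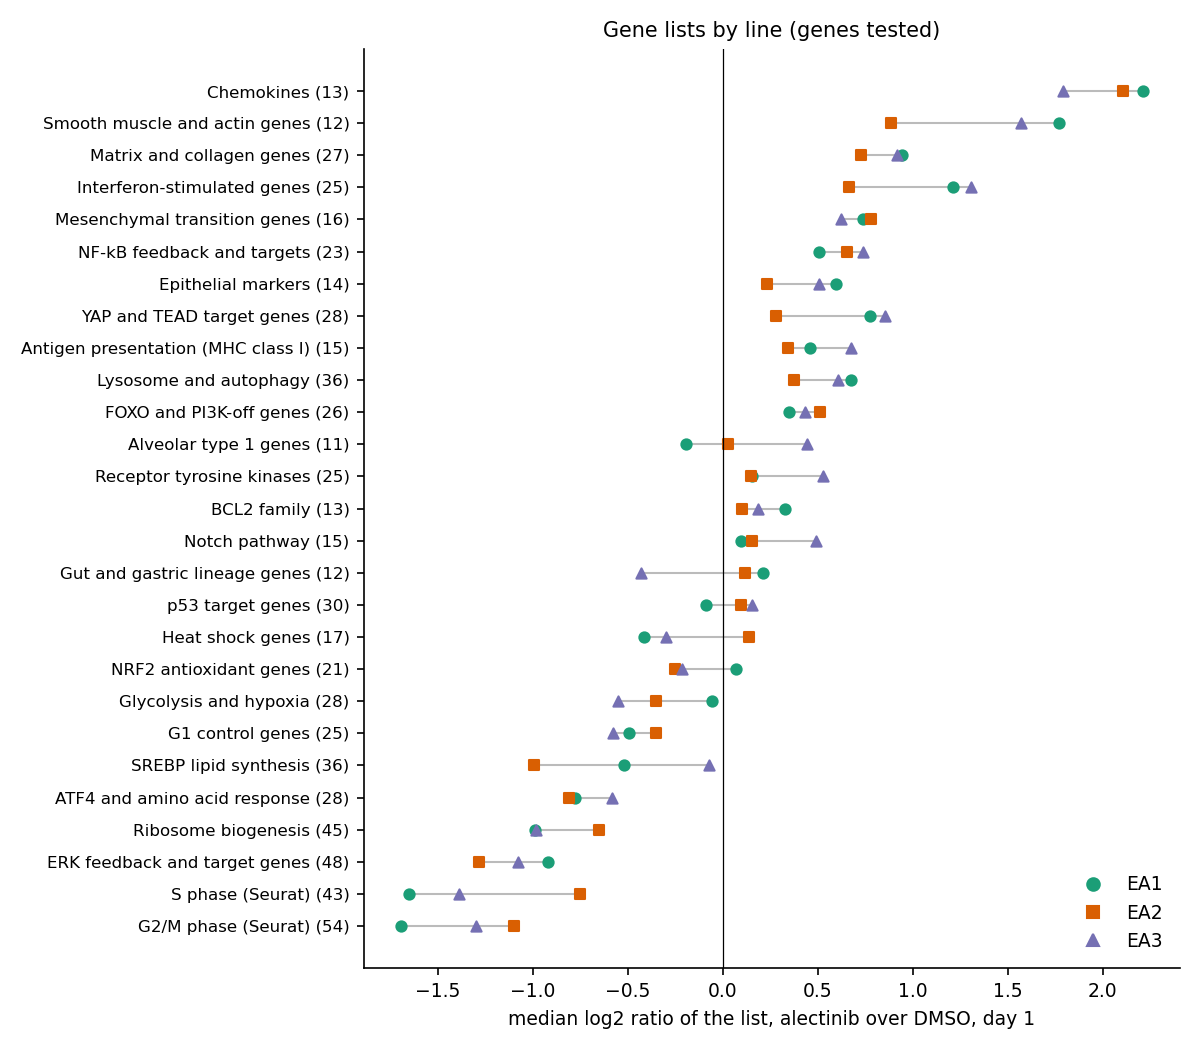
Median log2 ratio (alectinib over DMSO, day 1) of each gene list with at least 10 genes tested, with 1 marker per line and the number of genes in parentheses. The medians of the division, ERK and ribosome lists lie below 0 in each line, those of the chemokine, smooth muscle, matrix and interferon lists lie above 0 in each line, and the lists of gut, heat shock, p53, NRF2 and alveolar type 1 genes fall on both sides.

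The genes whose log2 ratio differed most between the lines were found by the range over the 3 lines among genes with an average log2 CPM of at least 5, as a description. Of the 6 genes with the widest range, mt-Atp6, mt-Co2 and mt-Co3 belong to the mitochondrial transcripts that mark the 2 kinds of library, and Eif4a-ps4 and Rpl14-ps1 are pseudogenes. mt-Atp6, for instance, stood at 8.72, 198 and 9.39 CPM with DMSO and 239, 15.3 and 218 CPM with alectinib. The remaining gene, Prl2c2, of the prolactin family with near-identical copies, stood at 71.6, 1.02 and 112 CPM with DMSO and 14.8, 21.8 and 35.8 CPM with alectinib. Its level was higher with alectinib in EA2 and lower in EA1 and EA3.

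The last comparison asked whether the first day differs from the later days. By the same 3-against-3 fit on each day, 343 genes were higher and 282 lower on day 2, 123 and 119 on day 3, and 161 and 184 on day 5, where day 1 had 1482 and 1489. Counts of calls depend on the spread between lines as well as on the size of the effect, and the median size of the log2 fold change over all genes was 0.421 on day 1, 0.398 on day 2, 0.446 on day 3 and 0.437 on day 5. The effect on day 1 was therefore also tested against the mean effect of days 2, 3 and 5 in 1 edgeR fit of 24 libraries. None of 12078 genes passed, a share of 0%, while 1345 had an unadjusted p under 0.05 and the smallest adjusted p was 0.178. DESeq2, run on the same design, called 121 genes as higher on day 1 than later and 70 as lower.

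The medians of the lists over days, each against its own DMSO library of that day, are given as a description. The ERK list lay at -0.91, -1.29 and -1.07 on day 1 and at -1.56, -1.97 and -1.88 on day 5. The G2/M list went from -1.69, -1.11 and -1.31 on day 1 to -0.03, -0.14 and -0.75 on day 5, and the S phase list from -1.65, -0.76 and -1.40 to -0.17, -0.14 and -0.33. On day 3 EA2 had its lowest medians of both lists, -1.81 and -1.30. The NF-kB list went from 0.51, 0.64 and 0.73 on day 1 to 0.003, 0.22 and 0.40 on day 5. The lysosome list stayed between 0.25 and 0.68 in every line and on every day.

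**Figure D5:**
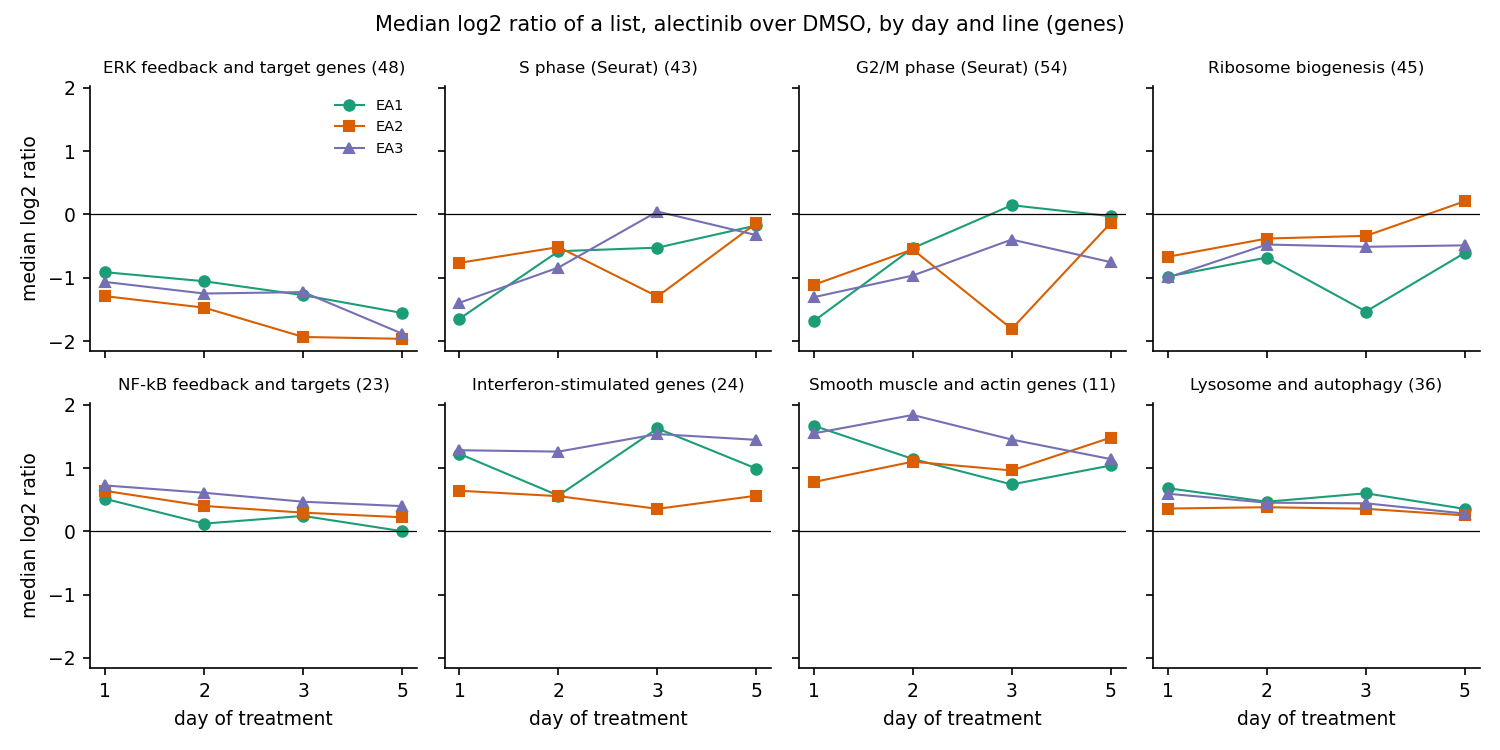
Median log2 ratio (alectinib over the DMSO library of the same line and day) of 8 gene lists on days 1, 2, 3 and 5, with 1 line per cell line and the number of genes in parentheses. The ERK list lies lowest on day 5 in EA1, EA2 and EA3, whereas the S phase and G2/M lists in EA1 and EA3 lie lowest on day 1.

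Day effects of single genes are given with no call, since none passed the edgeR test between days. Etv4 had day effects of -4.87 on day 1 and -4.81, -4.00 and -5.31 on days 2, 3 and 5, and Timp3 of 3.50 and then 4.03, 3.51 and 3.62. Hmga2 had -2.28 on day 1 and -3.84 on day 5. Mybl2 had -1.85 on day 1 and -0.92, -1.31 and -0.33 after, and Ccne1 had -1.75 and then -0.82, -0.41 and -0.04. Nfkbia had 1.86 on day 1 and 0.12 on day 5, and Cyp2s1 had 3.69 on day 1 and 1.05, 1.37 and -0.94 after. Of the genes with the smallest p between days, Krt19, a simple-epithelium keratin, had effects of 0.90, -0.08, -1.15 and -1.46 on days 1, 2, 3 and 5 (day 1 minus later 1.79, adjusted p = 0.195, edgeR, and 2.4e-06, DESeq2). Pgf, placental growth factor, had -0.89 and then -2.11, -3.03 and -5.30. Nucks1, a nuclear DNA-repair protein, had -1.05 and then -0.15, -0.30 and 0.39, and Rrm1, a subunit of ribonucleotide reductase, had -0.84 and then 0.18, 0.66 and 0.97. The effects of Krt19 and Pgf were lower after day 1 and those of Nucks1 and Rrm1 higher. DESeq2 called the differences of Pgf, Nucks1 and Rrm1, with adjusted p-values of 9.03e-05, 0.000193 and 0.000252.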

How the data were processed

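RNA from 6 day-1 cultures, 1 per line and treatment, was sequenced from poly(A) libraries made with a stranded kit. The authors mapped reads to mm10 with STAR after quality checks and deposited raw counts per gene, 1 column per library. The annotation release and the strand column are not given in the sources used here. Of the rows, 24 were date numbers in place of symbols and held 0.154% to 0.181% of a day-1 library's counts. They were left out, and the other 55391 names were matched to GENCODE M21 without regard to case.

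Tests on the counts used edgeR 4.0.16 under R 4.3.3 (TMM factors, filterByExpr by treatment, quasi-likelihood test with robust estimation, Benjamini-Hochberg adjustment at 0.05) with line and treatment as terms. The alectinib and DMSO libraries of a line came from the same cell line, which pairs them, and their deviations from the group means correlated at 0.748, 0.551 and 0.698 across genes. Values in CPM are scaled by TMM factors, except Trp53, Krt8, Krt18 and the sums of markers, which use library totals. Log2 ratios of a line used a prior count of 2. For the comparison of days, 24 libraries were fitted with 1 block for each pairing of line and day. The floor of 3 counts reflects counting error alone. DESeq2 1.42.0 was an alternative, and the tests were checked on simulated counts. Promoter windows came from RefSeq (GRCm38.p6).

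The members, gene lists and alternatives were chosen with earlier results of these data known. Genes were named by rule: 11 genes of interest to the study, the 12 smallest p-values in each direction with 1 sign in the 3 lines and a mean log2 CPM no lower than 3, up to 3 per list and direction, 6 per direction between days and the 6 widest ranges between lines. Other members of the lists that the report names, and the promoters printed, were chosen after their values were seen. Not every gene under the rule is described, and some are not reported here.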

Additional observations from a re-analysis of the deposited data

Results flagged for a closer look

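For 3 of the named genes, the 3 lines moved one way on day 1 and every line moved the other way on each of days 2, 3 and 5. H2-K1, a classical class I gene, had log2 ratios above 0 on day 1 and below 0 later, with a difference of day 1 minus later of 1.68 (adjusted p = 0.195, edgeR). Rrm1 had ratios below 0 on day 1 and above 0 later, with a difference of -1.45 (adjusted p = 0.195, edgeR). Galnt4, a glycosyltransferase, had the same order as Rrm1, with -1.14 (adjusted p = 0.197, edgeR). The 3 genes were named because their p-values between days were among the smallest, none of them passed the edgeR test of the difference, and none was called on day 1 alone. DESeq2 called the difference in all 3, with adjusted p-values of 0.00015 for H2-K1, 0.000252 for Rrm1 and 0.00134 for Galnt4. With each line left out in turn, the difference lay between 1.57 and 1.89 for H2-K1, between -1.74 and -1.20 for Rrm1 and between -1.28 and -0.96 for Galnt4.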

How the results depend on the processing

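Without the line as a replicate block, that is without the pairing of libraries by line, 0 genes were higher and 0 lower by edgeR on day 1, where 2196 had an unadjusted p under 0.05. The same fit without the 289 genes that differ with the kind of library also gave 0 and 0. The lines left out in turn gave 0 to 2205 higher genes and 0 to 2107 lower genes, with the highest counts when EA2 was left out, and without the 289 genes 199 to 1941 and 193 to 1963 (426 and 386 when EA3 was left out). At an unadjusted p under 0.05 the fits without EA1 and without EA3 held 3532 and 3193 genes. All 24 libraries in 1 fit gave 1019 higher and 992 lower genes, and 945 and 901 with the kind of library as a term. A log2 fold change of at least 1 left 725 and 607. DESeq2 on day 1 gave 1658 and 1723, and no gene called in the main test was called in the opposite direction under another setting. Between day 1 and later days, edgeR gave 0 in every setting, with or without the block, and DESeq2 121 and 70. Under the kind of library as a term, Prl2c2, not called in the main test, passed with the opposite sign, 1.23 (Benjamini-Hochberg adjusted p = 0.0215, edgeR). In that day-1 fit the term cannot be told apart from a response particular to EA2. The terms for the kind of library, the removal of the 289 genes, the correlations without them and the list counts without members at 10 or fewer counts in each DMSO library were chosen after seeing the data.

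Of the named genes, 33 lost their call in the 24-library fit, 12 without a filter on low counts and 2 with DESeq2, and with library size alone none did. Without the replicate block 126 lost it, without EA1 125, without EA3 126 and without EA2 5, and with the 289 genes removed 63, 44 and 5 lost it without EA1, EA3 and EA2. In the 24-library fit they include Cdkn1b, Trib2, Ldha, Arrdc3, Slc7a11, Aqp5, Gstm1 and Col1a2, and without the filter Cxcl1, Cxcl5, Ephb6, Trp53inp1 and Acta2. The medians of the gene lists stayed within the spread between lines in 30 lists for library size alone in 25 of 30 with at least 10 counts in each library, and in 24, 27 and 26 without EA1, EA2 and EA3. The main limits are 1 library per line and treatment, 3 lines, and p-values that measure the spread between lines and not between cultures. At 3 counts or fewer, sizes of change are loose. The causes of these shifts were not tested.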
